A study of Rattus norvegicus with 30 samples.

Results

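Platelet and megakaryocyte genes were followed in the lungs of rats with severe acute pancreatitis (SAP). The 8 genes chosen by symbol were Ppbp, Pf4, Itga2b, Itgb3, Gp9, Gp1bb, Gp5 and Treml1. Of these, 7 had a row among the 22914 genes of the count table, and Gp1bb was not analysed here because no row carries its symbol. The data are 30 RNA-seq libraries of lung tissue, 1 per animal, from male Sprague Dawley rats aged 8 weeks, with 3 rats in each of 10 groups.

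All rats were fasted, anaesthetized with pentobarbital and operated on, and their lungs were taken 6 or 24 hours later. In the Sham-6h and Sham-24h groups the pancreas was only turned slightly. The Con-6h and Con-24h groups had saline infused into the biliopancreatic duct. In the SAP, DEX and Emo groups of both times the duct received 5.0% sodium taurocholate (a bile salt, used here to injure the pancreas) at 0.1 mL per 100 g of body weight. DEX, the synthetic glucocorticoid dexamethasone, was given into a vein at 10 mg/kg. Emodin, a plant anthraquinone, was given into the stomach at 10 mg/kg by the sample descriptions and at 40 mg/kg by the treatment protocol. Both drugs were given 2 and 12 hours after the operation, so the DEX-6h and Emo-6h rats had 1 dose and the DEX-24h and Emo-24h rats 2, and the other groups had the vehicles. The lungs were irrigated through the pulmonary artery before they were taken, and how much blood each one kept was not measured. No platelet count, transgene or cell sort belongs to the design, and each library is a mixture of all lung cells.

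Platelets are cell fragments without a nucleus that are shed by megakaryocytes, and they keep mRNA made in the parent cell. Megakaryocytes lie in the bone marrow and also lodge in lung capillaries, where they release platelets. Platelets stick to injured vessel walls through the GPIb-IX-V complex (with Gp9 and Gp5 among its subunits), bind fibrinogen and each other through the integrin of Itga2b and Itgb3, and release the granule chemokines Pf4 and Ppbp, which act on neutrophils and monocytes.

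The libraries held 16813949 to 34692306 reads on genes. The fewest were in replicate 3 of SAP-6h, against 26516360 and 34692306 in the other rats of its group. That library also had the highest level of Pf4, Itga2b, Itgb3, Gp9 and Treml1. All 7 genes passed the filter on low counts, which left 15934 genes for the tests. Each had between 4 and 2353 reads in a library, with Gp5 and Ppbp at the low end (4 reads each in their lowest library) and Pf4 at the high end. Genes of alveolar type 2 cells, the surfactant producers that mark lung, summed to between 24645 and 47345 FPKM (fragments per kilobase and per library size, a level per gene length) in every library. In bulk lung, fewer platelets or megakaryocytes and less of a gene's RNA in each of them cannot be told apart. The paper's mapping summary gives every Sham and Con library a larger share of uniquely mapped reads than any SAP, DEX or Emo library. Where SAP, DEX or Emo is compared with Sham or Con, this difference and taurocholate cannot be told apart. Its part was not tested.

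Pf4 was by far the most abundant of the 7, with a mean level of 82.8 FPKM over the 30 libraries. It made up between 73.2% and 88.8% of the summed FPKM of the 7 genes in each lung (median 82.2%). The other means were 5.51 FPKM for Treml1, 4.16 for Itga2b, 3.35 for Itgb3, 2.5 for Gp9, 1.66 for Ppbp and 0.642 for Gp5. FPKM corrects for gene length, so these levels can be set side by side.

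The GPIb-IX-V complex binds von Willebrand factor on the vessel wall. Gp9, its small subunit, on chromosome 4 in the files, was at 2.9, 6.74 and 9.67 FPKM in the 3 SAP-6h rats and at 6.86, 8.15 and 4.61 FPKM in the DEX-6h rats. The Sham-6h rats had 2.05, 1.55 and 0.73 FPKM of Gp9, the Con-6h rats 0.88, 4.15 and 1.91 FPKM and the Emo-6h rats 3.43, 2.43 and 4.16 FPKM. Every SAP-6h and DEX-6h rat was thus above every Sham-6h rat, while 1 Con-6h rat reached into the SAP-6h range. At 24 hours Gp9 lay between 0.5 and 2.13 FPKM in all 15 rats, and the highest was an SAP-24h rat. Group means at 24 hours ran from 0.85 ± 0.373 FPKM in Emo-24h to 1.36 ± 0.693 FPKM in SAP-24h (SD, n = 3).

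Gp5, the subunit of the complex that thrombin cleaves, on chromosome 11, had the lowest levels of the 7. It was at 0.54, 0.59 and 0.06 FPKM in the Sham-6h rats, at 0.63, 1.39 and 2.29 FPKM in the SAP-6h rats and at 2.51, 1.37 and 0.94 FPKM in the DEX-6h rats. The Sham-6h rat at 0.06 FPKM had 4 reads of Gp5 and the DEX-6h rat at 2.51 FPKM had 209. The SAP-6h and DEX-6h ranges did not overlap with Sham-6h, although the lowest SAP-6h rat was only just above it. At 24 hours Gp5 stayed between 0.19 and 0.73 FPKM.

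Itga2b encodes the platelet-specific chain of the fibrinogen receptor and lies on chromosome 10, as does Itgb3. Its level was 3.51, 2.65 and 1.31 FPKM in Sham-6h, 1.97, 5.84 and 3.07 FPKM in Con-6h and 4.05, 8.57 and 16.1 FPKM in SAP-6h. In DEX-6h it was 11.57, 10.7 and 6.84 FPKM, and in Emo-6h 4.12, 3.23 and 5.29 FPKM. The SAP-6h group had the widest spread, from just above the Sham-6h rats to the highest level of any lung, whereas the 3 DEX-6h rats were all well above Sham-6h. At 24 hours all 15 rats lay between 1.09 and 4.4 FPKM.

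Itgb3 encodes the partner chain, which other cells such as endothelial cells also make. It varied least of the 7, with a highest group mean 2.83 times its lowest, against 4.27 for Pf4, 5.33 for Itga2b, 6.44 for Gp5, 6.76 for Treml1, 7.69 for Gp9 and 12.6 for Ppbp. Mean Itgb3 was 2.73 ± 0.56 FPKM in Sham-6h, 5.66 ± 2.19 FPKM in SAP-6h and 4.76 ± 0.889 FPKM in DEX-6h (SD, n = 3). At 24 hours it ran from 2 ± 0.775 FPKM in DEX-24h to 3.2 ± 0.863 FPKM in SAP-24h.

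Pf4, platelet factor 4, and Ppbp, pro-platelet basic protein, are both chemokines of the alpha granules and both lie on chromosome 14. Pf4 was at 101.99, 58.49 and 41.21 FPKM in Sham-6h, at 92.42, 180.26 and 278.5 FPKM in SAP-6h and at 177.51, 209.32 and 97.4 FPKM in DEX-6h. The lowest SAP-6h and DEX-6h rats were below the highest Sham-6h rat, so these groups overlapped. In the 15 lungs taken at 24 hours Pf4 had a median of 49.2 FPKM, and the highest was an SAP-24h rat at 124.15 FPKM, against 27.18 and 38.17 FPKM in the other SAP-24h rats. Ppbp was at 2.36, 0.9 and 0.2 FPKM in Sham-6h, at 1.44, 5.52 and 4.85 FPKM in SAP-6h and at 5, 3.01 and 1.75 FPKM in DEX-6h. Its Con-6h rats showed how much 1 animal can differ, with 4.22 FPKM in replicate 2 and 0.45 and 0.49 FPKM in the others.

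Treml1, a receptor of platelet and megakaryocyte granules that moves to the surface on activation, lies on chromosome 9. It was at 3.73, 3.36 and 0.57 FPKM in Sham-6h, at 4.55, 14.57 and 19.48 FPKM in SAP-6h and at 13.42, 18.05 and 11.05 FPKM in DEX-6h. The Con-6h rats had 2.12, 9.47 and 3.5 FPKM and the Emo-6h rats 5.55, 4.85 and 8.16 FPKM. Both SAP-6h and DEX-6h were above Sham-6h in every rat, and Emo-6h lay between them and the controls in its mean (6.19 ± 1.74 FPKM, SD, n = 3). At 24 hours the range was 1.3 to 6 FPKM, with a DEX-24h rat the highest.

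**Figure D1:**
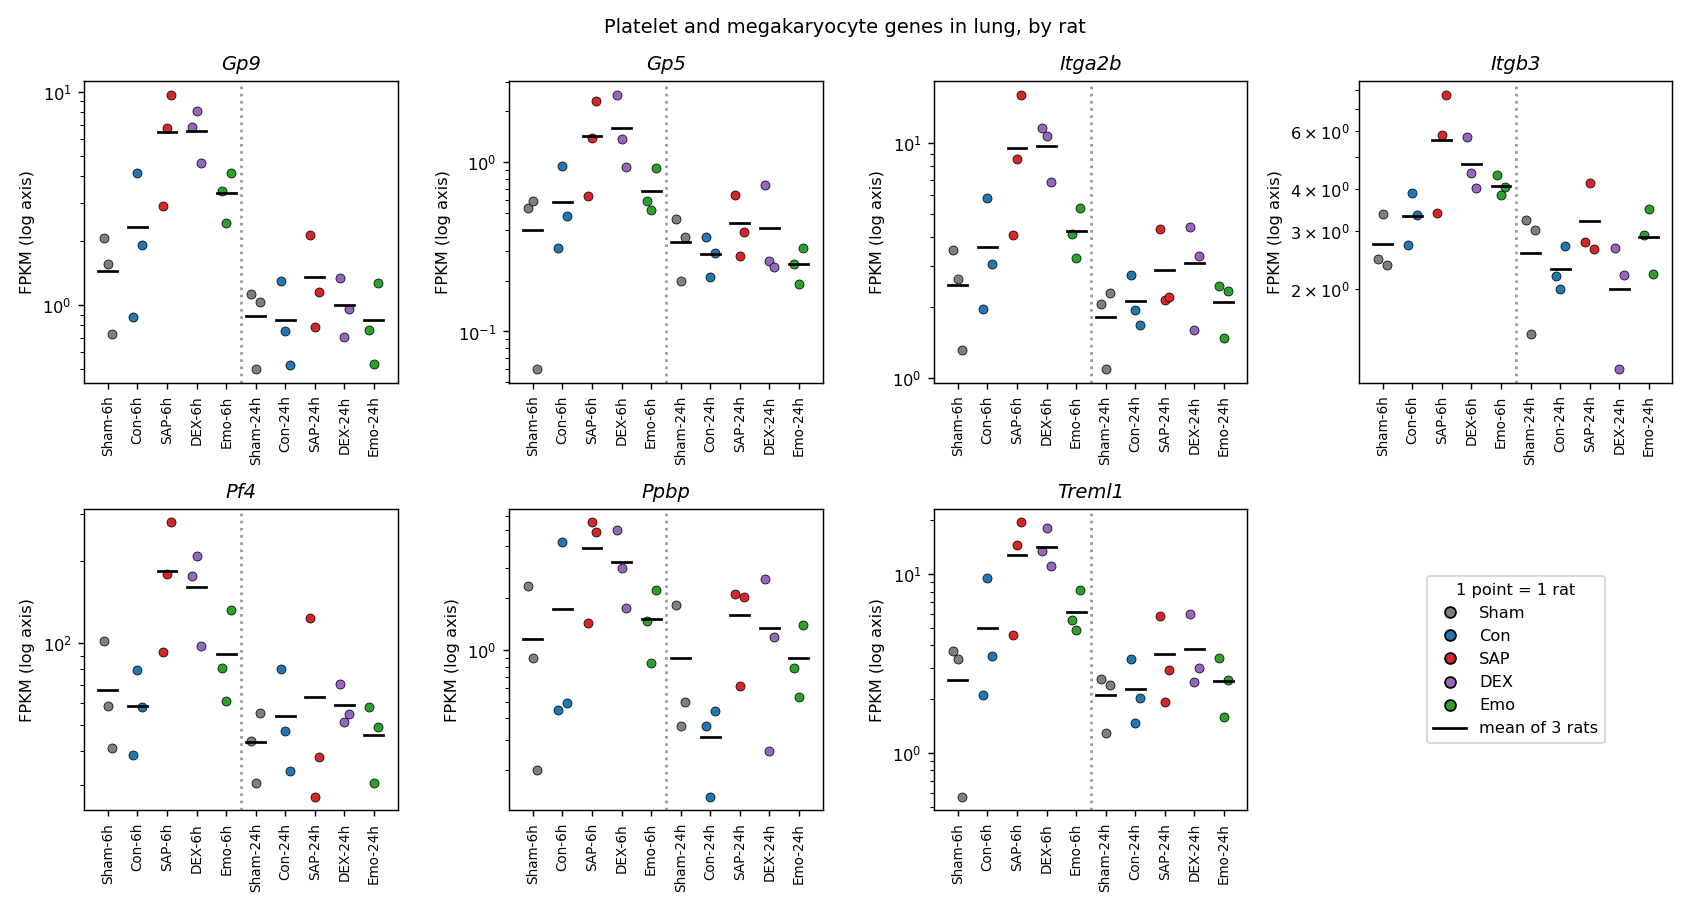
Level of each of the 7 genes in each of the 30 rats, in FPKM on a log axis, by group, with 6-hour groups to the left of the dotted line and 24-hour groups to the right and the mean of 3 rats as a bar. The SAP-6h and DEX-6h rats hold the highest levels of every gene, for Pf4 up to 278.5 FPKM, and the rats within those groups are spread widely.

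SAP-6h and DEX-6h took the first and second place by mean level for all 7 genes, in 1 order for Ppbp, Pf4 and Itgb3 and in the other for Itga2b, Gp9, Gp5 and Treml1. Over the 10 groups, the mean of a group exceeded that of the next by more than the larger of their SDs in 1 of 9 steps for Pf4 (DEX-6h over Emo-6h, 161 ± 57.7 against 91.6 ± 36.8 FPKM) and in 1 of 9 for Itgb3 (Emo-6h over Con-6h, 4.11 ± 0.282 against 3.32 ± 0.596 FPKM). For Ppbp, Itga2b, Gp9, Gp5 and Treml1 this held for 0 of 9 steps.

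Within a group, the same rats tended to be high or low for all genes. In 9 of the 10 groups 1 rat was the lowest of its 3 for at least 6 of the 7 genes, and in 5 groups 1 rat was the highest for at least 6. Replicate 2 of Con-6h was the highest of its group for all 7 genes and replicate 3 of Sham-6h the lowest of its group for all 7, and replicate 1 of DEX-24h was the highest for all 7. Across the 30 libraries the Pearson correlation of log2(FPKM + 1) between 2 of the genes had a median of 0.86 over 21 pairs, from 0.64 for Pf4 with Itgb3 to 0.97 for Itga2b with Treml1. When deviations from group means were correlated instead, the median was 0.82, from 0.26 for Pf4 with Itgb3 to 0.94 for Itga2b with Gp9. The genes of a library share its RNA and its depth, so these values describe how the genes moved together and carry no test.

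Because the members moved together from rat to rat, the 250 bases before their transcript starts were searched for the letters that the megakaryocyte factors GATA1 (GATAA) and FLI1 of the ETS family (GGAAG) are known to bind, on both strands. Sequences came from RefSeq (GRCr8) and were matched by symbol for 5 of the 7 members, and Pf4 and Itgb3 were not in the table. The letters and the window were chosen after the values of the members were known. Windows are shown 5′ to 3′ on the strand of the gene, with each match in capitals (TTATC and CTTCC are the same letters on the opposite strand), for 3 members that hold both and for 1 that holds neither. They lie at chr10:87925834-87926083 (minus strand, Itga2b), chr4:121792592-121792841 (plus strand, Gp9), chr11:83948257-83948506 (plus strand, Gp5) and chr9:20139934-20140183 (minus strand, Treml1).
Itga2b: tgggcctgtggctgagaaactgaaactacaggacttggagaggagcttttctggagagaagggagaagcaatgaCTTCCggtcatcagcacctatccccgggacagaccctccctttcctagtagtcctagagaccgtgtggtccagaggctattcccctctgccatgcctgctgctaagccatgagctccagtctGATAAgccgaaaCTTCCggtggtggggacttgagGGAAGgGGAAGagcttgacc
Gp9: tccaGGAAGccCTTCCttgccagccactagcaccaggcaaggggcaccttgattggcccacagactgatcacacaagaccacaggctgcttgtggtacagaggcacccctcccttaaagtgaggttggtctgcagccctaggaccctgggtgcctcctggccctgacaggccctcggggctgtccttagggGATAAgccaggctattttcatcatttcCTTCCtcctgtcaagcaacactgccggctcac
Gp5: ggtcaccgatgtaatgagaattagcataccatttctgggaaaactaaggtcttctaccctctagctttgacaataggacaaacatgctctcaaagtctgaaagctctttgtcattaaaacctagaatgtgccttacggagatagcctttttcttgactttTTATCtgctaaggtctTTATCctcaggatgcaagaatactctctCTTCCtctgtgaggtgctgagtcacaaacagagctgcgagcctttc
Treml1: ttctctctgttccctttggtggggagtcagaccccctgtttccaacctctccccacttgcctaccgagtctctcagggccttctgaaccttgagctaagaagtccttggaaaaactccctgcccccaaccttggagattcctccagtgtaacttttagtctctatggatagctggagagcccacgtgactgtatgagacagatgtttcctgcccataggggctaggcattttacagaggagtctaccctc

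Itga2b held 1 GATAA, 54 to 50 bases before the start, and 4 matches of GGAAG, and Gp9 held 1 GATAA at 59 to 55 bases and 3 of GGAAG. Gp5 held 2 of GATAA, at 90 to 86 and 74 to 70 bases, and 1 of GGAAG. Ppbp had 2 of GGAAG and none of GATAA, and Treml1 had neither in this window although it had a correlation of 0.97 with Itga2b. No match of the 2 motifs overlapped with the other. Of 33469 promoter windows of that length in the table, 23.5% held GATAA, 63.3% GGAAG and 13.8% both, against 3 of 5, 4 of 5 and 3 of 5 members. A match is a description of these letters and not a site of binding.

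To ask how pancreatitis moved these genes, SAP was compared with Sham. The share of uniquely mapped reads differed between these groups too, as given above. At 6 hours all 7 genes had higher estimates in SAP, with a median log2 fold change of 1.87 against -0.02 over all 15934 genes. The estimates ran from 1.09 ± 0.3 for Itgb3 (SE) to 2.36 ± 0.61 for Treml1, which is 5.14-fold, with Itga2b at 1.98 ± 0.48 and Gp9 at 2.19 ± 0.53. None of the 7 passed edgeR's quasi-likelihood test at a Benjamini-Hochberg adjusted p under 0.05 with at least a 2-fold change, called here for short, and the lowest adjusted p was 0.0798 for Itga2b and Gp9. Of all genes 0.188% were called higher in this comparison. At an unadjusted p under 0.05 by edgeR 6 of 7 were higher, all but Ppbp, as were 7.25% of all genes. DESeq2 called 4 of the 7, and 191 of the 14992 genes to which it gave an adjusted p. The FPKM of 5 genes, all but Ppbp and Pf4, did not overlap between the groups and were higher in SAP-6h, which held in that direction for 5.58% of all genes. Without replicate 1 of SAP-6h, the lowest of its group for all 7 genes, 3 members were called. It was the only 1 of the 6 refits without a rat that called any member, and its share of all genes was not counted. With only these 6 libraries in the model, 0 of 14862 genes were called. Over the 7 red blood cell genes tested, the median log2 fold change in SAP-6h vs Sham-6h was 2.16 with 0 called, and their part in this comparison was not tested.

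At 24 hours SAP-24h vs Sham-24h gave smaller estimates, from 0.45 ± 0.3 for Itgb3 to 0.97 ± 0.88 for Ppbp (log2 fold change, SE). Here 0 of 7 were called, 0 had an unadjusted p under 0.05 and DESeq2 called 0, while 5.00% of all genes were called. The change of the SAP vs Sham difference from 6 to 24 hours was itself tested, and its estimate was below 0 for all 7 genes, from -0.64 ± 0.42 for Itgb3 to -1.44 ± 0.85 for Treml1. None was called (lowest adjusted p = 0.443, edgeR, none with an unadjusted p under 0.05, DESeq2 0, 0.0314% of all genes), so the 2 times were not shown to differ.

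Against saline in the duct, SAP-6h vs Con-6h had a median log2 fold change of 1.44 over the members. Pf4 was at 1.72 ± 0.51, Gp9 at 1.56 ± 0.52 and Ppbp at 1.29 ± 0.86. Again 0 of 7 were called with edgeR, although 6 were higher at an unadjusted p under 0.05, as were 4.89% of all genes, and DESeq2 called 1 (95 of 15609 genes). Of all genes 0.163% were called by edgeR. In the same comparison all 7 red blood cell genes were at a higher level (median log2 fold change 1.4) and so were all 8 neutrophil genes (0.95), with 0 called in either list, and their part in the result was not tested. In SAP-24h vs Con-24h the median was 0.74, and Ppbp stood out at 2.49 ± 0.98 because the Con-24h rats had only 0.36, 0.14 and 0.44 FPKM of it. Its adjusted p was 0.0706 with edgeR, so 0 of 7 were called, against 6.91% of all genes. At an unadjusted p under 0.05 by edgeR 1 member was higher, as were 18.2% of all genes, and DESeq2 called 1 (1186 of 15609 genes). Without replicate 2 of SAP-24h, 1 member was called, the only 1 of the 6 refits without a rat that called any. In SAP-24h vs Con-24h 7 of 8 neutrophil genes were called higher (median 3.68). Of 6 mast cell and basophil genes 2 were called lower (median of the 6, -0.82). Their part was not tested. Between the 2 control operations 0 members were called in Sham-6h vs Con-6h (0.00% of all genes) and 0 in Sham-24h vs Con-24h (1.00%), with 0 at an unadjusted p under 0.05 and 0 by DESeq2 in either. The intervals were wide. At 6 hours the median log2 fold change was -0.49, with Treml1 at -0.92 ± 0.6 (SE, 95% interval from -2.18 to 0.33), and at 24 hours it was 0.04, with Ppbp at 1.52 ± 0.99 (from -0.54 to 3.58).

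The DEX-6h rats, which had taurocholate and 1 dose of dexamethasone, were compared with Sham-6h in the same way. Treml1 was 5.76-fold higher (log2 fold change 2.53 ± 0.62, SE, adjusted p = 0.0120 with edgeR), Gp9 4.70-fold (2.23 ± 0.53, adjusted p = 0.0107), Gp5 4.18-fold (2.06 ± 0.6, adjusted p = 0.0307) and Itga2b 4.05-fold (2.02 ± 0.48, adjusted p = 0.0104). These 4 of 7 members rose, against 2.25% of all genes called higher. Itgb3 had a log2 fold change of 0.86 ± 0.3 (adjusted p = 0.0698, edgeR), Pf4 of 1.32 ± 0.51 (0.0993) and Ppbp of 1.54 ± 0.87 (0.275). The FPKM of 5 members, the 4 called and Itgb3, did not overlap and were higher in DEX-6h, which held in that direction for 10.6% of all genes. Itga2b, Gp9 and Treml1 kept their call whichever of the 6 rats was left out. The call of Gp5 was lost without replicate 1 of DEX-6h (log2 fold change 1.59, adjusted p = 0.152 with edgeR), when replicate 1 of Sham-6h was left out (2.33, 0.0644) or replicate 3 of that group (1.57, 0.0966). With only these 6 libraries in the model, 2 members and 352 of 14939 genes were called. DESeq2 on all 30 libraries called 5 members, with Pf4 added (adjusted p = 0.0446), and 764 of 15609 genes. The red blood cell genes had a median log2 fold change of 0.87 in the same comparison, with 0 of 7 called.

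DEX-24h vs Sham-24h had a median log2 fold change of 0.49 over the members, from -0.32 ± 0.3 for Itgb3 to 0.91 ± 0.6 for Treml1. It called 0 of 7 with edgeR, 0 at an unadjusted p under 0.05 and 0 with DESeq2, against 4.15% of all genes.

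Whether either drug changed the members in rats with pancreatitis was asked against SAP at the same time. DEX-6h vs SAP-6h gave estimates close to 0 for each, from -0.25 ± 0.83 for Ppbp to 0.19 ± 0.57 for Gp5 (log2 fold change, SE). The 95% intervals remained wide, from -0.92 to 1 for Itga2b and from -1.98 to 1.49 for Ppbp, and for all but Itgb3 they reached a 2-fold difference in at least 1 direction. No member was called (lowest adjusted p = 0.875 with edgeR, 0 at an unadjusted p under 0.05, DESeq2 0, 0.515% of all genes). The members had a median of 0.04 in this comparison, where all 7 red blood cell genes were below 0 (median -1.18, 0 called). In DEX-24h vs SAP-24h all 7 estimates were below 0, with Itgb3 the lowest at -0.77 ± 0.3 (adjusted p = 0.121, edgeR), the 1 member with an unadjusted p under 0.05 (12.5% of all genes were lower at that p). Again 0 were called (DESeq2 0, 3.73% of all genes). All 8 neutrophil genes were below 0 in the same comparison (median -2.51, 2 called lower), and their part was not tested.

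Emodin at 6 hours went with lower estimates of all 7 genes than SAP-6h, with a median log2 fold change of -1.04. Itga2b was at -1.17 ± 0.47 with a 95% interval from -2.15 to -0.2, Gp9 at -0.93 ± 0.51 (from -2 to 0.13), Pf4 at -1 ± 0.5 (from -2.04 to 0.05) and Itgb3 at -0.46 ± 0.3 (from -1.08 to 0.16). The Emo-6h and SAP-6h rats overlapped in FPKM for every member. None was called (lowest adjusted p = 0.286 with edgeR, for Itga2b, the 1 member with an unadjusted p under 0.05, DESeq2 0, 0.0251% of all genes), and 5.88% of all genes were lower at an unadjusted p. All 7 red blood cell genes were below 0 in Emo-6h vs SAP-6h as well (median -0.94, 0 called). Emo-24h vs SAP-24h had a median of -0.69 over the members, with 0 called (0 at an unadjusted p under 0.05, DESeq2 0, 3.19% of all genes). There the red blood cell genes had a median of -1.25 and the neutrophil genes of -0.83, with 0 called in either list, and their part was not tested.

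The drugs were then set beside each other. Emo-6h vs DEX-6h had estimates below 0 for all 7, from -0.22 ± 0.3 for Itgb3 to -1.25 ± 0.58 for Gp5, and the Emo-6h rats had lower FPKM of Itga2b, Gp9, Gp5 and Treml1 than any DEX-6h rat, which held for 9.21% of all genes. For Gp5 the highest Emo-6h rat was only just below the lowest DEX-6h rat, at 0.93 against 0.94 FPKM. No member was called (lowest adjusted p = 0.165 with edgeR, 3 with an unadjusted p under 0.05, DESeq2 0, 1.41% of all genes), and 7.30% of all genes were lower at an unadjusted p. The 7 red blood cell genes went the other way in Emo-6h vs DEX-6h, with all estimates above 0 (median 0.35, 0 called). In Emo-24h vs DEX-24h the median was -0.62 with 0 called (0 at an unadjusted p under 0.05, DESeq2 0, 5.06% of all genes), all 7 red blood cell genes were below 0 (median -1.38, 0 called) and all 8 neutrophil genes above 0 (median 1.64, 1 called).

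Emo-6h vs Sham-6h lay between, with all 7 estimates above 0, a median log2 fold change of 0.8 and the highest values for Treml1 (1.32 ± 0.6) and Gp9 (1.25 ± 0.52). It called 0 of 7 with edgeR (DESeq2 0, 0.477% of all genes), and 3 were higher at an unadjusted p under 0.05, as were 11.9% of all genes. All 7 red blood cell genes were above 0 in that comparison too (median 1.3, 0 called), and their part was not tested. Emo-24h vs Sham-24h had a median of 0.07 and called 0 (0 at an unadjusted p under 0.05, DESeq2 0, 0.00% of all genes). For the members, the difference of DEX from SAP, and that of emodin from SAP, was not shown to change between 6 and 24 hours. The DEX interaction called 0 of 7 (lowest adjusted p = 0.609 with edgeR, 0.138% of all genes), as did the emodin interaction (0.665, 1.68% of all genes), with 0 at an unadjusted p under 0.05 and 0 by DESeq2 in both.

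**Figure D2:**
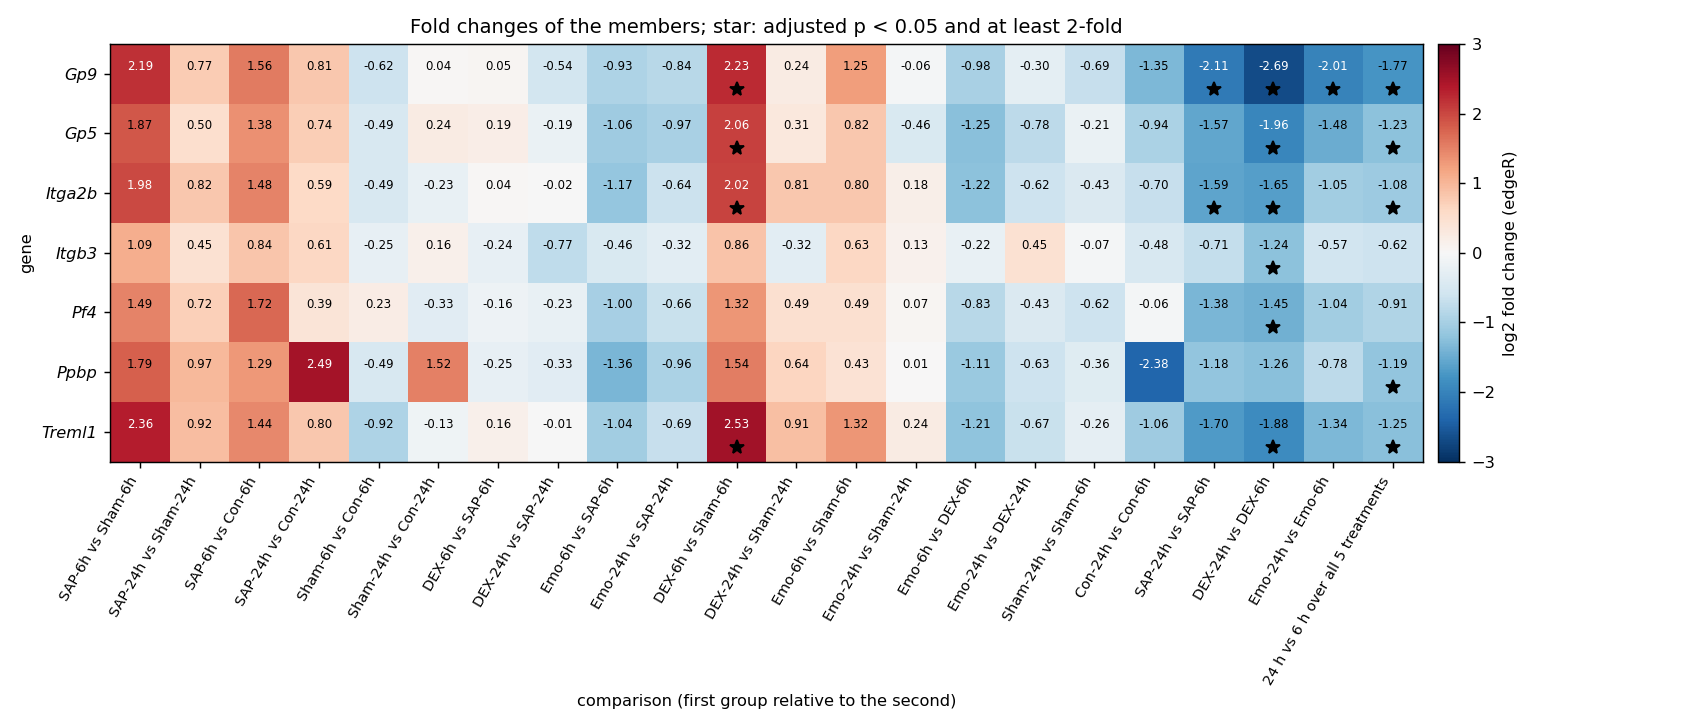
Log2 fold change of each member (rows) in each comparison (columns), from edgeR, with red for higher and blue for lower in the first group named and a star where the adjusted p was under 0.05 with at least 2-fold. Stars stand only in DEX-6h vs Sham-6h, in the 24 vs 6 hour columns of SAP, DEX and Emo, and in the column of all 5 treatments, where Gp9 is at -1.77.

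The effect of time since the operation was asked next. Averaged over the 5 treatments, 24 hours against 6, all 7 were lower with an adjusted p under 0.05 by edgeR, as were 23.4% of all genes, and the largest adjusted p was 0.0169, for Ppbp. Gp9 fell 3.41-fold (log2 fold change -1.77 ± 0.24, SE, adjusted p = 4.61e-06), Treml1 2.38-fold (-1.25 ± 0.27), Gp5 2.35-fold (-1.23 ± 0.27), Ppbp 2.28-fold (-1.19 ± 0.4) and Itga2b 2.12-fold (-1.08 ± 0.21). These 5 of 7 members reached 2-fold, which 2.61% of all genes did in that direction. Pf4 was 1.88-fold lower (-0.91 ± 0.23) and Itgb3 1.53-fold lower (-0.62 ± 0.13). The median of the 7 was -1.19 against 0.01 over all genes. Without replicate 2 of Con-6h, the rat with high levels named above, 3 members were called, Ppbp had an adjusted p of 0.0690 at -0.84 and Itga2b was at -0.99.

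The medians at 6 and 24 hours show the size of the shift in FPKM. They were 3.43 and 0.96 FPKM for Gp9, 5.55 and 2.55 FPKM for Treml1, 4.12 and 2.22 FPKM for Itga2b and 92.4 and 49.2 FPKM for Pf4 (15 rats each). The ranges of the 2 times overlapped for every member. Replicate 3 of Sham-6h was the lowest of the 15 rats at 6 hours for 6 members, all but Pf4, for which it was replicate 1 of Con-6h.

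Within treatments, members were called lower in SAP, DEX and Emo and 0 in Sham or Con, where all 7 estimates were also below 0. A difference in the fall between taurocholate and control groups was not shown. That of SAP from Sham called 0 of 7 (lowest adjusted p = 0.443, edgeR), and no other such difference was tested. In DEX-24h vs DEX-6h 6 of 7 members fell, all but Ppbp, against 3.91% of all genes called lower. Gp9 fell 6.45-fold (-2.69 ± 0.54, adjusted p = 0.00134 with edgeR), Gp5 3.88-fold (-1.96 ± 0.59), Treml1 3.67-fold (-1.88 ± 0.6), Itga2b 3.13-fold (-1.65 ± 0.47), Pf4 2.74-fold (-1.45 ± 0.51) and Itgb3 2.37-fold (-1.24 ± 0.3). These 6 did not overlap in FPKM between the times, as 21.6% of all genes did not in that direction. Without replicate 2 of DEX-24h only Gp9 was called (-2.51, adjusted p = 0.00933 with edgeR), and without replicate 3 of DEX-24h Itga2b, Itgb3 and Gp9 were (3 members). Pf4 also lost its call without replicate 1 of DEX-24h (-1.58, adjusted p = 0.0733), replicate 1 of DEX-6h (-1.37, 0.0868) or replicate 2 of DEX-6h (-1.21, 0.129) by edgeR. Gp5 lost its call without replicate 1 of DEX-6h (-1.47, adjusted p = 0.101 with edgeR) and Treml1 without replicate 2 of DEX-6h (-1.65, 0.0769). In the same comparison all 8 neutrophil genes were below 0, 2 of them called lower (median -0.65), and of 6 mast cell and basophil genes 3 were called lower and 1 higher (median -0.84). Their part in the result was not tested.

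In SAP-24h vs SAP-6h Gp9 fell 4.30-fold (-2.11 ± 0.53, adjusted p = 0.0228 with edgeR) and Itga2b 3.01-fold (-1.59 ± 0.47, adjusted p = 0.0471), 2 of 7 members against 1.74% of all genes called lower. Treml1 was at -1.7 ± 0.6 (adjusted p = 0.0842), Gp5 at -1.57 ± 0.59 (0.105) and Pf4 at -1.38 ± 0.51 (0.0964). Only Gp9 did not overlap in FPKM, as 17.8% of all genes did not in that direction, and replicate 1 of SAP-24h was the highest of its group for 6 of the 7. Both calls were lost without replicate 3 of SAP-6h (Gp9 at -1.69, adjusted p = 0.102 with edgeR), without replicate 2 of SAP-24h (-1.8, 0.0588) or without replicate 3 of SAP-24h (-1.97, 0.0812). The call of Itga2b alone was lost without replicate 2 of SAP-6h (-1.67, adjusted p = 0.0641 with edgeR), and 0 members were called with these 6 libraries alone in the model. DESeq2 called 4 members and 589 of 15300 genes. Of the 6 mast cell and basophil genes 5 were below 0 in this comparison, 2 of them called lower (median -1.24). All 7 red blood cell genes were below 0 as well, 5 of them called lower (median -2.79). The part of both lists was not tested.

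In Emo-24h vs Emo-6h Gp9 fell 4.03-fold (-2.01 ± 0.54, adjusted p = 0.00653 with edgeR), the 1 of 7 members called, against 3.08% of all genes called lower. It stayed called whichever of the 6 rats was left out. Itga2b was at -1.05 ± 0.47 (adjusted p = 0.0873) and Treml1 at -1.34 ± 0.6 (0.0869). The FPKM of 6 members, all but Ppbp, did not overlap and were lower in Emo-24h, as was the case in that direction for 21.4% of all genes. At an unadjusted p under 0.05 by edgeR 4 members were lower, as were 21.5% of all genes. DESeq2 called 3 members and 1562 of 15917 genes. With these 6 libraries alone in the model, 4 members and 1313 of 15006 genes were called. Of the 6 mast cell and basophil genes 2 were called lower (median of the 6, 0.15). All 7 red blood cell genes were below 0, 6 of them called lower (median -3.39), and their part was not tested. The controls moved in the same direction without a call. Sham-24h vs Sham-6h had a median of -0.36 with 0 called (0 at an unadjusted p under 0.05, DESeq2 0, 0.257% of all genes), and Con-24h vs Con-6h a median of -0.94 with 0 called (2 at an unadjusted p under 0.05, Ppbp and Gp9, DESeq2 0, 0.00628% of all genes), with 5.80% of all genes lower at an unadjusted p. In Con-24h vs Con-6h all 7 red blood cell genes (median -1.29) and all 8 neutrophil genes (median -1.81) were below 0 as well, with 0 called, and in Sham-24h vs Sham-6h 6 of the 7 red blood cell genes were (median -0.54, 0 called). Their part was not tested.

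Red blood cell genes moved with the same times. All 7 of the 7 tested, among them the globins Hba1 and Hbb and the heme enzyme Alas2, were called lower at 24 hours over the 5 treatments, with a median log2 fold change of -1.76. Within treatments 5 of the 7 were called lower in SAP-24h vs SAP-6h (median -2.79) and 6 in Emo-24h vs Emo-6h (median -3.39). In DEX-24h vs DEX-6h 0 were called, with a median of -1.28. Their summed FPKM ranged from 769 to 9534 at 6 hours (median 4026) and from 293 to 3863 at 24 hours (median 1457), and none of them was at 0 in a group. Over the 30 libraries the mean z-score of the 7 platelet genes had a Pearson correlation of 0.6 with the log2 of that sum (Spearman 0.54, Pearson 0.59 without the 2 libraries farthest from the median sum). It was 0.5 among the 15 libraries at 6 hours, 0.08 among those at 24 hours and 0.29 for deviations from group means. Replicate 3 of DEX-6h had a red blood cell sum of 769 FPKM, like the 772 FPKM of replicate 3 of Sham-6h, with a mean platelet z-score of 0.83 against -1.17. Replicate 3 of SAP-6h was the highest of all rats for both, at 9534 FPKM and 2.3. These rats were picked as examples after their values were seen. The part of blood left in the lung in the platelet gene levels was not tested.

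**Figure D3:**
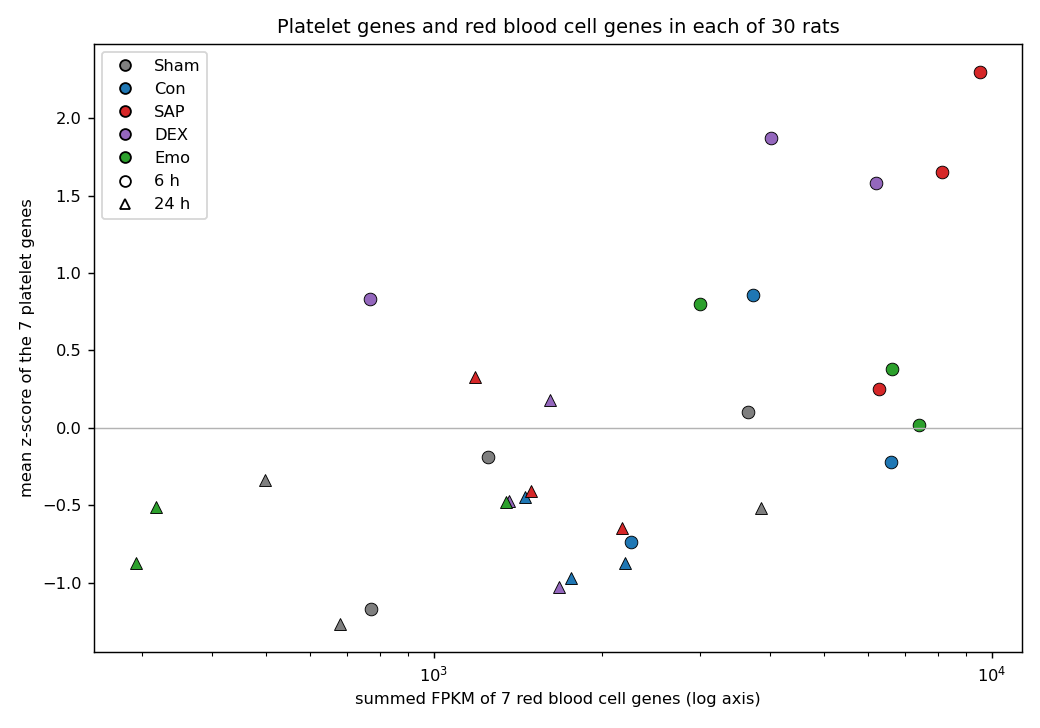
Mean z-score of the 7 platelet genes against the summed FPKM of 7 red blood cell genes (log axis) in each of 30 rats, with circles for 6 hours and triangles for 24 hours. The highest platelet score, 2.3, and the highest red blood cell sum, 9534 FPKM, fall in the same SAP-6h rat, while among the 24-hour rats the correlation is 0.08.

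Neutrophils respond to Ppbp, and their genes were counted in the same way. Of 8 neutrophil genes tested, only Ngp was called lower at 24 hours over all treatments (median log2 fold change -0.56), and their summed FPKM had medians of 2840 at 6 hours and 2993 at 24 hours. Of 6 mast cell and basophil genes, 2 were called lower over all treatments, Cpa3 and Mcpt1 (median of the 6, -0.44). Between groups the neutrophil genes moved more, with median sums of 12791 FPKM in SAP-24h, 2257 in DEX-24h and 209 in Con-24h. The correlation with the platelet z-score was 0.32 over the 30 libraries (Spearman 0.26), 0.43 among those taken at 6 hours, 0.59 among those at 24 hours and 0.46 for deviations from group means. For endothelial genes the Pearson correlation was 0.1 over the 30 libraries and -0.37 for deviations from group means. In the same order it was -0.14 and -0.56 for alveolar type 2 genes and 0.2 and -0.2 for alveolar macrophage genes. For mast cell and basophil genes it was -0.26 and -0.31. Reads on genes per library had a Pearson correlation of 0.15 and a Spearman correlation of 0.37 with the score.

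The other genes of platelet formation and function were taken from a list by role. Of 51 listed, 50 had a row and 48 were tested, and at 24 hours against 6 over all treatments 3 were called lower (2.61% of all genes) and 0 higher, with a median log2 fold change of -0.22. Gp1ba, the chain of the GPIb complex that binds von Willebrand factor, fell by 1.72 ± 0.33 on the log2 scale (adjusted p = 0.000184, edgeR). Mfsd2b, a transporter of red blood cells and platelets for sphingosine-1-phosphate, fell by 1.44 ± 0.31 and Gata1, a transcription factor of the megakaryocyte and red blood cell lineages, by 1.23 ± 0.31. By role, the medians were -0.33 for 8 growth and transcription factors, -0.29 for 15 signalling and cytoskeleton genes, -0.15 for 16 surface receptors and 0.01 for 9 granule proteins.

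**Figure D4:**
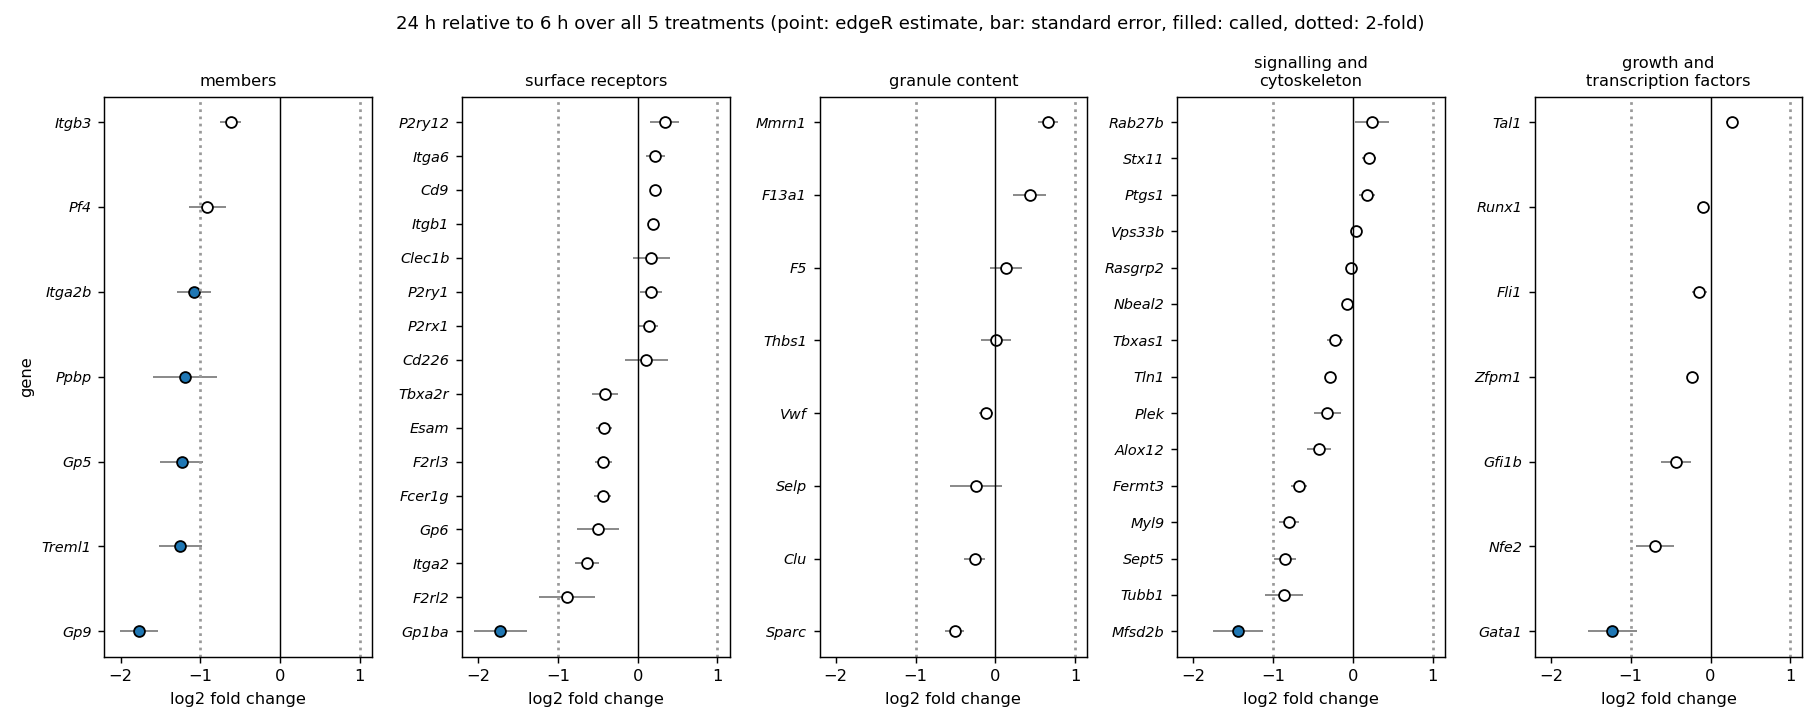
Log2 fold change, 24 hours relative to 6 over all 5 treatments, of the 7 members and of other platelet genes by role, with the standard error as a bar and a filled point for a called gene. The members lie between -1.77 and -0.62, and granule genes lie on both sides of 0, from Mmrn1 at 0.66 to Sparc at -0.51.

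Many of those genes are made by other lung cells too, and the part of those cells in the list results was not tested. Von Willebrand factor (Vwf), which endothelial cells also store, was at -0.12 ± 0.09 at 24 hours against 6, and multimerin 1 (Mmrn1) at 0.66 ± 0.12. The collagen receptor Gp6 was at -0.5 ± 0.26 (adjusted p = 0.117, edgeR) and the ADP receptor P2ry12 at 0.34 ± 0.18 (0.118). Among the transcription factors of megakaryocytes, Nfe2 was at -0.7 ± 0.24 (adjusted p = 0.0186, edgeR) and Gfi1b at -0.43 ± 0.19 (0.0640).

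In DEX-6h vs Sham-6h 5 of the 48 were called higher (2.25% of all genes) and 0 lower (median 0.25). Among them, Gp1ba rose by 2.32 ± 0.73 on the log2 scale (adjusted p = 0.0447, edgeR), from 0.52, 0.81 and 0.23 FPKM in the Sham-6h rats to 3.24, 2.42 and 1.78 FPKM in the DEX-6h rats, and these did not overlap. The thrombin receptor F2rl3 rose by 1.72 ± 0.26, Sept5 by 1.59 ± 0.31 and thrombospondin 1 (Thbs1) by 1.49 ± 0.43. The call of Gp1ba was lost whichever of the 6 rats was left out (log2 fold changes of 1.97 to 2.78) and that of Thbs1 without replicate 1 or 3 of either group (1.25 to 1.44), while F2rl3 and Sept5 kept theirs. In SAP-6h vs Sham-6h F2rl3 alone of the 48 was called (1.56 ± 0.26, adjusted p = 0.00773), with Gp1ba at 2.54 ± 0.73 (0.129) and Nfe2 at 0.63 ± 0.53 (0.675). F2rl3 was also called higher in SAP-6h vs Con-6h, the only 1 of the 48 there (0.113% of all genes), and in Emo-6h vs Sham-6h, again the only 1 (0.213%). Each of these 3 calls of F2rl3 was lost without replicate 1 of its control group (1.38, 1.53 and 0.84, with adjusted p of 0.0705, 0.0660 and 0.184 in edgeR), and without some other rats.

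At 24 hours, where 0 members were called, SAP-24h vs Sham-24h called 3 of the 48 higher (1.98% of all genes) and 1 lower (3.01%). P-selectin (Selp), which endothelial cells store as well, was at 50.45, 5.11 and 6.48 FPKM in SAP-24h and at 1.99, 0.72 and 2.31 FPKM in Sham-24h. Replicate 1 of SAP-24h was far above the other rats, and the log2 fold change of Selp was 3.82 ± 0.82 with it (adjusted p = 0.00536, edgeR) and 1.89 without it (0.0852). Thbs1 was at 1.43 ± 0.43 and lost its call without that rat (0.98, adjusted p = 0.179 with edgeR) or without any 1 of the Sham-24h rats. The thromboxane receptor Tbxa2r, the 1 gene called lower, was at -1.38 ± 0.36 and at -1.25 without that rat (adjusted p = 0.0721, edgeR). It also lost its call without replicate 1 of Sham-24h (-1.18, adjusted p = 0.0682 with edgeR). F2rl3 was at 1.63 ± 0.26 and kept its call whichever rat was left out. In SAP-24h vs Sham-24h all 8 neutrophil genes were above 0 (median 1.71, 0 called), and all 6 mast cell and basophil genes were below 0 (median -1.39, 2 called lower). DEX-24h vs SAP-24h called 5 of the 48 lower (2.55% of all genes) and Ptgs1 higher (1.18%). Of the 5, F2rl3 kept its call in every refit. Without replicate 1 of SAP-24h, Selp was at -1.94 (adjusted p = 0.0907, edgeR), Nfe2 at -1.76 (0.0905) and Esam at -0.56 (0.0600). Nfe2 lost its call without any 1 rat other than replicate 2 of SAP-24h (-2.06 to -1.76), and Esam fell under 2-fold without replicate 1 of DEX-24h (-0.97). Clu lost its call without replicate 2 of SAP-24h (-1, adjusted p = 0.0532 with edgeR) or replicate 2 or 3 of DEX-24h (-1.02 and -1.05). Emo-24h vs SAP-24h called F2rl3 lower (1.26% of all genes), with its call kept in every refit, and Tbxa2r higher (1.93%), with its call lost whichever rat was left out. SAP-24h vs Con-24h called 10 higher, among them Nfe2 (2.45 ± 0.56), F2rl2 (3.67 ± 0.87) and F5 (1.94 ± 0.46), and Tbxa2r lower, while 3.65% of all genes were called higher and 3.26% lower. Leaving out 1 rat in turn kept 6 of these 11 calls, with Nfe2, F2rl2, F5 and Tbxa2r among them. In that comparison 7 of 8 neutrophil genes were called higher (median log2 fold change 3.68), and in DEX-24h vs SAP-24h 2 of 8 were called lower (median -2.51). Their part in these list results was not tested. DEX-24h vs DEX-6h called 8 lower (3.91% of all genes), among them Gp1ba (-2.47 ± 0.73), Sept5 (-1.51 ± 0.31) and the integrin activator Fermt3 (-1.05 ± 0.23). Leaving out 1 rat in turn kept 4 of the 8, with Sept5 among them. Gp1ba was at -2.14 without replicate 2 of DEX-24h (adjusted p = 0.0714, edgeR), and Fermt3 fell under 2-fold without that rat (-0.97).

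The other time comparisons called fewer genes of the list. SAP-24h vs SAP-6h called 3 of the 48 lower (1.74% of all genes) and 0 higher, Mfsd2b (-3.66 ± 0.74), Gata1 (-2.45 ± 0.7) and the myosin light chain Myl9 (-1.01 ± 0.3), of which 1, Mfsd2b, kept its call whichever rat was left out. Emo-24h vs Emo-6h called 2 lower (3.08% of all genes), F2rl3 (-1.29 ± 0.26) and Sept5 (-1.04 ± 0.31), and 2 higher (6.33%), the coagulation factor chain F13a1 (1.24 ± 0.47) and Mmrn1 (1.01 ± 0.27). Only F2rl3 kept its call in every refit there. In the emodin interaction (the difference of emodin from SAP, 24 hours minus 6) 1 of the 48 was called lower, F2rl3 (0.621% of all genes). That call was lost in some refits, where the estimates of F2rl3 ran from -1.82 to -1.45. Between groups at 24 hours, DEX-24h vs Sham-24h called 3 higher (0.992% of all genes), among them Thbs1 (1.87 ± 0.43) and Ptgs1 (1.07 ± 0.23), and 0 of the 3 kept its call in every refit. There 2 of 6 mast cell and basophil genes (median -1.14) and 1 of 8 neutrophil genes (median -0.93) were called lower. Of 4 alveolar macrophage genes 1 was called higher, as was 1 of 6 alveolar type 2 genes, and their part was not tested. Emo-24h vs DEX-24h called Ptgs1 (-1.19 ± 0.23) and Thbs1 (-1.37 ± 0.43) lower (1.24% of all genes), and Thbs1 was at -0.5 without replicate 3 of DEX-24h (adjusted p = 0.558, edgeR). Sham-24h vs Con-24h called P2ry1 (1.09 ± 0.31) and Itga2 (1.3 ± 0.36) higher (0.916% of all genes), and both calls were lost in some refits. All 8 neutrophil genes were above 0 there (median 2.59, 2 called higher). All 7 endothelial genes were below 0 (median -0.42, 0 called), and the part of both lists was not tested.

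The genes whose levels were most like those of the members were sought among 12404 other genes with a symbol and a mean of at least 1 FPKM. Likeness was the Pearson correlation of log2(FPKM + 1) with the mean z-score of the 7 members over the 30 libraries. The 10 highest were Ly6g6f (0.98), Sept5 (0.97), Reep2 (0.96), Gm933 (0.95), Tubb1 (0.93), Muc20 (0.92), Tuba4a (0.84), Got1 (0.84), Tspan33 (0.83) and AABR07052504.1 (0.83). Tubb1 is the beta-tubulin of platelets and megakaryocytes. A pseudocount of 0.1 kept 9 of the 10, Spearman correlation 7 and deviations from group means 6.

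Ly6g6f had 1.39, 2.56 and 4.93 FPKM in SAP-6h, 4.66, 3.58 and 1.67 FPKM in DEX-6h and 0.8, 0.67 and 0.23 FPKM in Sham-6h, so its rats stood in the same order as for Itga2b in all 3 groups. Reep2 and Muc20 had group means of 2.17 and 2.23 FPKM in SAP-6h against 0.78 and 0.773 FPKM in Sham-6h. Got1 (mean 24.5 FPKM) and Tuba4a (38.3 FPKM) had far higher levels than the others. Within groups the correlation was 0.39 for Got1, 0.58 for Tspan33, 0.62 for AABR07052504.1 and 0.67 for Tuba4a, against 0.94 for Ly6g6f.

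Sept5, the second of these, encodes a septin that platelets use in granule release. It was at 5.59, 8.41 and 12.72 FPKM in SAP-6h, at 12.97, 10.3 and 7.67 FPKM in DEX-6h and at 3.77, 4.46 and 2.42 FPKM in Sham-6h, so both groups lay above the Sham-6h rats. In the RefSeq annotation of GRCr8 the span of Gp1bb lies within that of Septin5 and both end at the same base of chromosome 11, and the GPIb beta chain is among the other names of Septin5 there. The files hold a row for Sept5 and none for Gp1bb, so the Sept5 counts may include reads of Gp1bb, which was not tested.

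**Figure D5:**
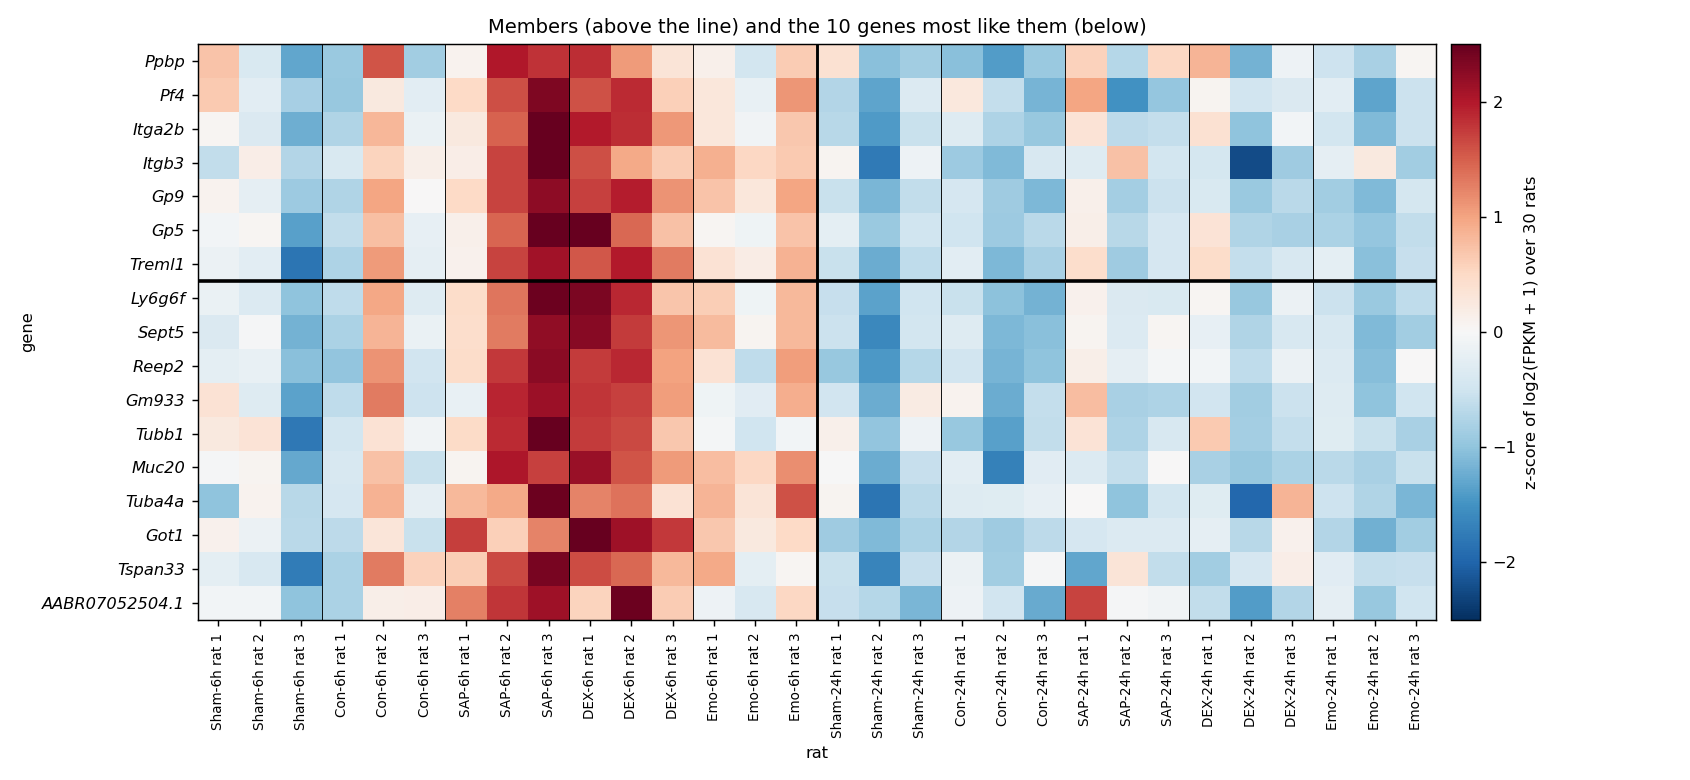
Z-score of log2(FPKM + 1) over 30 rats for the 7 members (above the line) and the 10 genes most like them (below), with rats in columns by group and the 6-hour rats on the left. Replicate 3 of SAP-6h (mean member z-score 2.3) and replicate 1 of DEX-6h (1.87) are the darkest red columns, and replicate 2 of Con-6h (0.86) stands out among the controls.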

How the data were processed

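Lung RNA of 30 rats was sequenced as directional, polyadenylated paired-end libraries. The authors mapped reads with TopHat2 to the genome named rat_ensembl_v6 with at most 2 mismatches and discarded reads with several places. They deposited whole-number counts per gene and FPKM per gene, and the counting program and its use of strand are not given in the sources used here.

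Genes were filtered with edgeR 4.0.16 (R 4.3.3, at least 10 counts by its filterByExpr rule and 15 in total), normalised by TMM and tested with its quasi-likelihood test in 1 model of 10 groups with 20 residual degrees of freedom, over 25 contrasts. A gene was called at a Benjamini-Hochberg adjusted p under 0.05 over all 15934 genes with at least a 2-fold change. Intervals are 95%. DESeq2 1.42.0 was an alternative, beside other normalisation, filters, samples and a replicate block. Libraries held 16813949 to 34692306 reads on genes, and 4 reads in the lowest library limit Gp5 and Ppbp. Levels are deposited FPKM, correlated as log2(FPKM + 1) with pandas 2.3.3.

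Tested on simulated data for DEX-6h vs Sham-6h (15768 genes), 169 of 200 genes changed 4-fold were called, and 4 unchanged genes. The labels do not say that equal replicate numbers mark a shared animal or batch, and only in DEX-24h vs DEX-6h, 1 of 21 comparisons, did all 3 same-numbered pairs deviate together (correlations 0.212, 0.221 and 0.23). Whether replicates differ in more than the animal is not stated, so p-values measure the spread between these rats. The members and gene lists were chosen with earlier results of these data known. The named genes are the members, the called genes of the platelet list and the 10 genes most like the members, with Sept5, Gata1, Gfi1b and Nfe2, and some list genes are not reported here. The examples Vwf, Mmrn1, Sparc, Gp6, P2ry12 and Gp1ba in comparisons where they were not called were chosen after their values were seen.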

Additional observations from a re-analysis of the deposited data

How the results depend on the processing

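The 18 log2 fold changes of members that were called, and those of Pf4 and Itgb3 in the average over treatments, which had an adjusted p under 0.05 but less than 2-fold, came to 20. For these, 381 alternative values were computed. Of these, 353 kept direction and an adjusted p under 0.05 whatever the fold, 28 kept direction but not that p, and 0 reversed. Leaving out 1 rat gave 288 of the values and 23 of the 28 losses. Counted by the call itself, which also asks for at least 2-fold, the 18 had 313 alternative values and lost the call in 32, of which 27 came from leaving out 1 rat. Leaving out each rat for the called genes of the platelet list was chosen after seeing the data. Counts of members called moved as follows. With an unadjusted p under 0.05 and at least 2-fold they were 6 in SAP-6h vs Sham-6h, 5 in SAP-6h vs Con-6h, 1 in SAP-24h vs Con-24h, 1 in Emo-6h vs SAP-6h, 2 in Emo-6h vs Sham-6h, 3 in Emo-6h vs DEX-6h, 2 in Con-24h vs Con-6h, 5 in SAP-24h vs SAP-6h and 4 in Emo-24h vs Emo-6h. The share of all genes that passed this looser rule was not counted, so these counts are no result about the members. DESeq2 called 4 in SAP-6h vs Sham-6h (191 of 14992 genes) and 5 in DEX-6h vs Sham-6h (764 of 15609). It called 1 in SAP-6h vs Con-6h (95 of 15609 genes) and 1 in SAP-24h vs Con-24h (1186 of 15609). In SAP-24h vs SAP-6h it called 4 (589 of 15300 genes) and in Emo-24h vs Emo-6h 3 (1562 of 15917). With the compared groups alone, 2 were called in DEX-6h vs Sham-6h (352 of 14939 genes) and 0 in SAP-24h vs SAP-6h (177 of 14892). That fit called 4 in Emo-24h vs Emo-6h (1313 of 15006 genes). With no filter on low counts, 1 was called in SAP-24h vs SAP-6h (320 of 22914 genes). The cause of these moves was not tested. Leaving out each rat gave 0 to 3 calls in SAP-6h vs Sham-6h, 0 to 1 in SAP-24h vs Con-24h, 0 to 3 in SAP-24h vs SAP-6h, 1 to 6 in DEX-24h vs DEX-6h and 3 to 6 over all treatments. The share of all genes called in those refits was not counted. The fit with the replicate block changed no count of members called, with 4 in DEX-6h vs Sham-6h, 2 in SAP-24h vs SAP-6h, 6 in DEX-24h vs DEX-6h, 1 in Emo-24h vs Emo-6h and 5 over all treatments. The fit of compared groups alone was not run for the average over treatments. Of the 10 genes most like the members, 6 were shared when deviations from group means were used. With 3 rats a group and 4 reads of Gp5 or Ppbp in the lowest library, small differences of these genes were not detectable.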
